A study of Homo sapiens with 3 samples.

Results

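The signal recognition particle RNA (7SL) and the other small structural RNAs that RNA-seq counts as RN7SL, RN7SK, RNU, RNY, VTRNA, RMRP and RPPH1 genes were examined in T24 cells, an established human bladder carcinoma line. Members were the rows of the count table whose Ensembl identifier maps to one of these symbols and that had at least 10 reads in a library, so they were chosen by their raw counts. Of 2842 rows of these families, 632 had a read and 105 reached the minimum, out of 58381 rows in all. They were 32 of 680 RN7SL rows, 12 of 294 RN7SK rows, 59 of 1804 RNU rows and 2 of 56 RNY rows. None of the 6 VTRNA rows, nor RMRP nor RPPH1, reached it. At the edge of this minimum, 9 members had a highest count of exactly 10 and 12 rows stopped at 9. Only 7 of the 105 carry the name of a family gene (RN7SL2, RN7SL3, RNU6-1, RNU6-2, RNU6-9, RNU5A-1 and RNU6ATAC), and the other 98 are named as pseudogene copies.

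The 3 libraries were Ctrl (labelled Empty), RT (the control after ionising radiation) and RT + shHDAC6 (labelled HDAC6 KD + RT, cells with a lentiviral shRNA against the deacetylase HDAC6, irradiated), and the labelled dose was 10 Gy. A growth protocol shared by the 3 samples describes a pLKO.1 control vector and puromycin selection, whereas the text of the study also calls the comparator parental, so which of these the Ctrl and RT cells were is not certain. There was 1 library per condition, so no difference below has a replicate check or a p-value, and each of the 3 comparisons shares libraries with the others. Cells with the shRNA and no irradiation were not analysed here.

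These RNAs are short, abundant and highly structured, and most are made by RNA polymerase III without a poly(A) tail. The 7SL RNA is the scaffold of the signal recognition particle, which docks ribosomes that make secreted proteins at the endoplasmic reticulum, and 7SK RNA holds the elongation kinase P-TEFb inactive. The U RNAs are the cores of the spliceosome, U7 acts in histone mRNA 3′ end processing, Y RNAs bind Ro60 and La, and RMRP and RPPH1 are the RNA parts of RNase MRP and RNase P. Their genes have been copied many times by retrotransposition, so a human genome carries many diverged copies beside few functional genes. According to the labels the kit was TruSeq Stranded mRNA, whereas the methods of the study name an Agilent strand-specific kit. The RNA selection used is therefore not certain, and how reads that match several places were counted is not stated.

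The RN7SL copies were compared with the reference gene RN7SL1, which was not itself a member. RN7SL1 lies at chr14:49586580-49586878 (GRCh38, plus strand), RN7SL2 at chr14:49862550-49862849 (minus strand), RN7SL3 at chr14:49853616-49853914 (minus strand) and RN7SL4P at chr3:15738515-15738809 (plus strand, antisense in an intron of ANKRD28). RN7SL81P at chr7:128761338-128761598 (plus strand, in an intron of CALU) is an example of a diverged copy in a same-strand intron. In a pairwise alignment, RN7SL2 was 98.7% identical to RN7SL1, RN7SL3 97.7%, RN7SL4P 87.3% and RN7SL81P 74.9%.

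For U6, the snRNA at the catalytic centre of the spliceosome, the reference was RNU6-1 at chr15:67839939-67840045 (minus strand). RNU6-6P, RNU6-4P, RNU6-3P, RNU6-2 and RNU6-9 have exactly the sequence of RNU6-1, so a read from one fits all. RNU6-1016P at chr6:75644084-75644177 (plus strand, in an intron of SENP6) had the most counts of the U6 copies, and RNU6-705P at chr5:181301967-181302070 (plus strand, in no other gene) was the only other U6 copy with at least 50 counts in a library. RNU6-1016P was 72.0% identical to RNU6-1 and RNU6-705P 80.4%.

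Ctrl held 41811165 counts, RT 35959265 and RT + shHDAC6 35424086, of which the members took 0.00858%, 0.00422% and 0.00448%. HDAC6, the targeted gene, was at 68.3, 71.1 and 62.0 CPM (the share of the TMM-scaled library size), so its mRNA in the library labelled RT + shHDAC6 was lower than in RT by 0.20 on the log2 scale (interval 0.11 to 0.28 lower). Keratins KRT7 (3533, 3854 and 597 counts) and KRT8 (1508, 796 and 1060) were present, while the urothelial plaque genes UPK1B, UPK2 and UPK3A had 3 counts or fewer in each library. The leukocyte marker PTPRC had 120, 66 and 57 counts, and the endothelial markers PECAM1 and CDH5 had 489, 209 and 323 and 143, 68 and 80. Urothelial GATA3 had 2320, 1423 and 709 counts, mesenchymal VIM 121716, 74147 and 95822, and the muscle marker DES 5, 5 and 5. Mitochondrially encoded RNA was higher by 0.92 on the log2 scale in RT than in Ctrl, and its part in the results below was not tested. Values below are raw counts, or log2 ratios of TMM-scaled counts with 95% Clopper-Pearson intervals, which cover counting error only. A count of 0 was set to 0.5, a ratio of at least 2-fold is called higher or lower, and no ratio is given where both libraries had 3 counts or fewer. A count of 0 allows up to 3 counts, or 0.0662, 0.0894 and 0.0857 CPM in the 3 libraries. TMM scaling raised the log2 ratios of RT against Ctrl by 0.22 over scaling by library totals.

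The summed 7SL RNA copies were lower in the RT library than in the Ctrl library, through 4 of the 32. With 1 library per condition and an uncertain RNA selection, a change in the cells and a difference in library preparation cannot be told apart. RN7SL2 had 1459 counts in the Ctrl library, 109 in the RT library and 141 with RT + shHDAC6. Ctrl stood alone, with RT at 10.1% of it and RT + shHDAC6 at 12.5% after scaling. In scaled values these were 32.2, 3.25 and 4.03 CPM, a log2 ratio of -3.31 (-3.60 to -3.03) for RT against Ctrl and -3.00 (-3.26 to -2.75) for RT + shHDAC6 against Ctrl. Of the 6124 rows with at least 1459 counts in Ctrl, 1 had a lower ratio of RT to Ctrl. RT + shHDAC6 against RT gave 0.31 (-0.06 to 0.68), an interval that includes no difference.

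RN7SL3, the other family gene among the members, had 183, 23 and 21 counts in the same order. It was also high in Ctrl alone, with a log2 ratio of -2.56 (-3.25 to -1.93) for RT against Ctrl and -0.19 (-1.12 to 0.73) for RT + shHDAC6 against RT. RN7SL4P had 118, 5 and 9 counts and a ratio of -4.13 (-5.78 to -2.86) for RT against Ctrl. RN7SL5P, in an intron of PTPRD on the opposite strand, had 16, 1 and 1 counts, a ratio of -3.57 with an interval of -8.96 to -0.88. RN7SL5P was named after its values were seen, and it and RN7SL4P reached the minimum of 10 only in Ctrl, so their low ratios follow in part from the choice of members. Together these 4 copies had 1776, 138 and 172 counts, which is -3.25 (-3.51 to -3.00) for RT against Ctrl and 0.26 (-0.08 to 0.59) for RT + shHDAC6 against RT.

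The other 28 RN7SL copies, a set made after the values were seen, summed to 529, 403 and 431 counts. Their log2 ratio of RT to Ctrl was 0.04 (-0.15 to 0.23), and that of RT + shHDAC6 to Ctrl was 0.08 (-0.11 to 0.26). RN7SL81P, the most counted of them, had 60, 58 and 66 counts, and RN7SL130P, in an intron of PGM1, had 26, 31 and 29. Neither differed beyond counting error in RT against Ctrl, at 0.39 (-0.16 to 0.93) and 0.69 (-0.11 to 1.5). The sum of all 32 members thus read 2305, 541 and 603 counts, a ratio of -1.66 (-1.79 to -1.52) for RT against Ctrl, -1.56 (-1.69 to -1.43) for RT + shHDAC6 against Ctrl and 0.09 (-0.08 to 0.27) for RT + shHDAC6 against RT. Without RN7SL2 the first of these was -0.53.

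**Figure D1:**
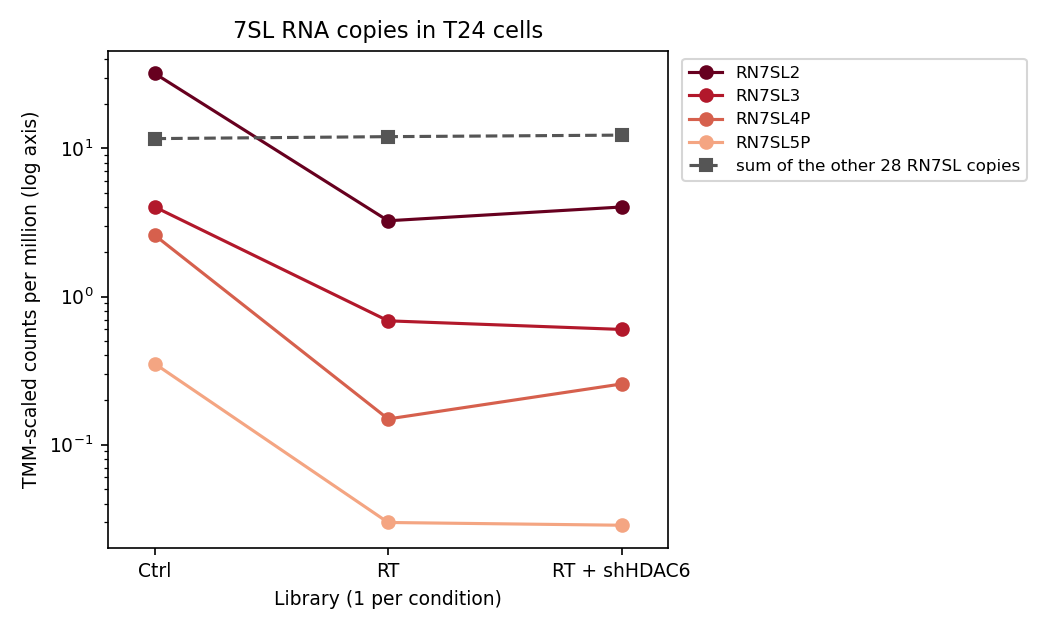
TMM-scaled CPM (log axis) of RN7SL2, RN7SL3, RN7SL4P and RN7SL5P and of the sum of the other 28 RN7SL copies in the 3 libraries, 1 per condition. The 4 named copies are high in Ctrl and low in both irradiated libraries, while the dashed sum stays between 11.7 and 12.3.

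These 4 copies, set apart after the values were seen, are the RN7SL members with under 90% of their 50-base windows found at 1 place only. The set thus follows this share as well as the ratios, so the difference in share from the other 28 is no separate result. Of all windows of 50 bases, 13.1% in RN7SL2, 62.0% in RN7SL3, 41.9% in RN7SL4P and 41.2% in RN7SL5P occur at 1 place in GRCh38. In the other 28 copies the share was 94.3% or more, and in 25 of them it was 100%. RN7SL2 has 62.9% of its windows in common with RN7SL1, 57.0% with RN7SL4P and 30.3% with RN7SL3, so reads of one can be credited to another. RN7SL1 itself had 0 counts in every library, although 15.6% of its windows are found once. In the present annotation RN7SL2 lies wholly within an exon of ENSG00000282885 on the same strand, which had 37, 9 and 18 counts. The values of the 4 copies are therefore not independent, and how many of the reads came from RN7SL1, RN7SL2 or RN7SL3 cannot be told apart.

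**Figure D2:**
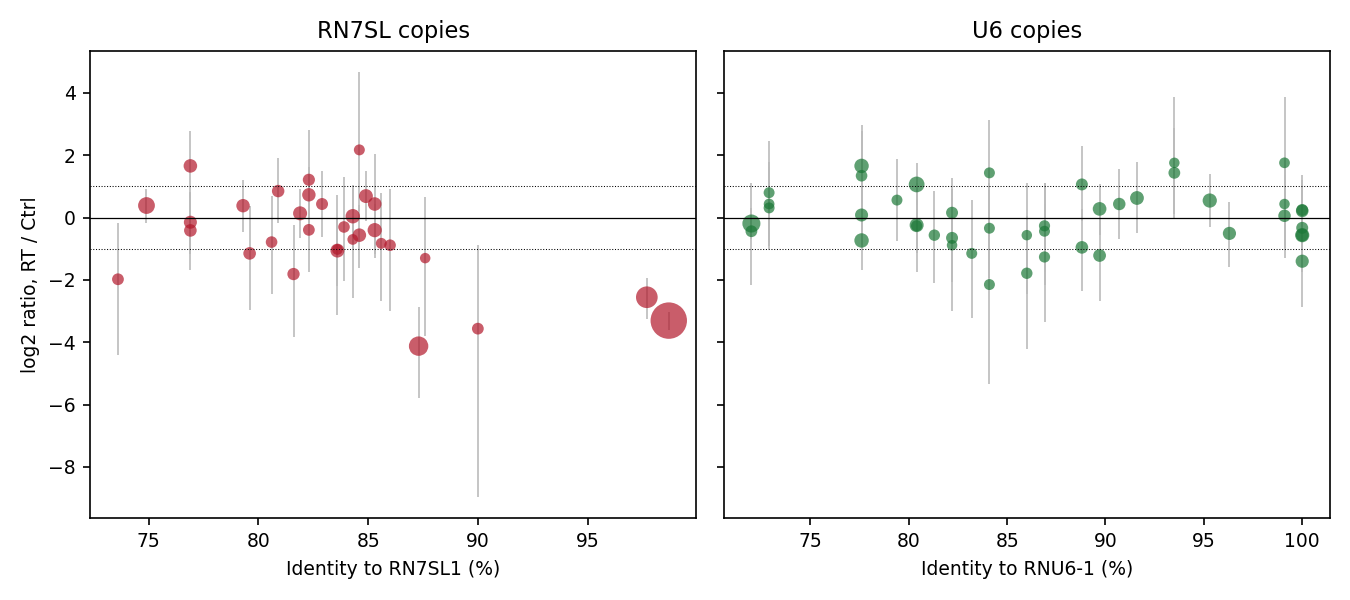
Log2 ratio of RT to Ctrl against the percent identity to RN7SL1 (left, 32 copies) or to RNU6-1 (right, 45 copies). Points grow with the highest count, grey lines are 95% counting intervals and dotted lines mark 2-fold. The 5 RN7SL copies above 87% identity, a cut chosen with results of these data known, lie below -1, as do 5 of the 27 others. RN7SL4P, RN7SL5P and RN7SL220P of the 5 reached 10 counts only in Ctrl.

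Compared per length, RN7SL2 stood at 107 CPM per kilobase in Ctrl and at 10.8 and 13.4 in the irradiated libraries. RN7SL3 was at 13.5, 2.29 and 2.01, and RNU6-1016P at 20.6, 18.1 and 19.4. RN7SL2 thus led the members per length in Ctrl and stood below RNU6-1016P in RT.

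Across all members, 20 of 105 were at least 2-fold lower and 14 at least 2-fold higher in RT than in Ctrl, against 9.2% lower and 4.96% higher among the 20527 rows with 10 counts. Most members are lowly counted, however, since 102 of them had a highest count of 10 to 99. Of these 102, 17 were lower and 14 higher, where 20.6% of all 7794 rows in that count range were lower and 6.11% higher. The median log2 ratio was -0.15 over the members, -0.06 over all rows and -0.37 over the rows of 10 to 99 counts. By family, 10 RN7SL copies were lower and 3 higher, 2 RN7SK copies lower and 0 higher, 8 RNU copies lower and 10 higher, and 1 of the 2 RNY copies was higher. Of the 20 lower members, 15 reached 10 counts only in Ctrl. Of the 14 higher ones, 4 did so only in RT and 2 only in RT + shHDAC6. Some other lower members had under 10 counts in RT, and some other higher ones, such as RNU6-856P with 9, in Ctrl. For all of these the choice of members itself favoured the difference. The interval was clear of 0 for 11 of the 20 lower members and for 7 of the 14 higher ones. Leaving out the 4 RN7SL copies, the other 101 members summed to 1813, 1380 and 1416 counts, a ratio of 0.04 (-0.06 to 0.14) for RT against Ctrl.

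RT + shHDAC6 differed from RT in 34 members, 20 lower and 14 higher, where 5.61% of all rows were lower and 4.93% higher, and 10.9% and 11.3% of the rows with 10 to 99 counts. The median of the 101 members with a ratio was 0.04. The interval was clear of 0 for 8 of the lower and 4 of the higher members. Against Ctrl, RT + shHDAC6 had 26 members lower and 13 higher, with 10.5% and 4.97% of all rows and 20.5% and 7.24% of the rows with 10 to 99 counts. Some of the lower members, RN7SL4P and RN7SL5P among them, reached 10 counts only in Ctrl. In RT + shHDAC6 against RT, some lower members reached it only in RT and some higher ones only in RT + shHDAC6. For all of these the choice of members itself favoured the difference.

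**Figure D3:**
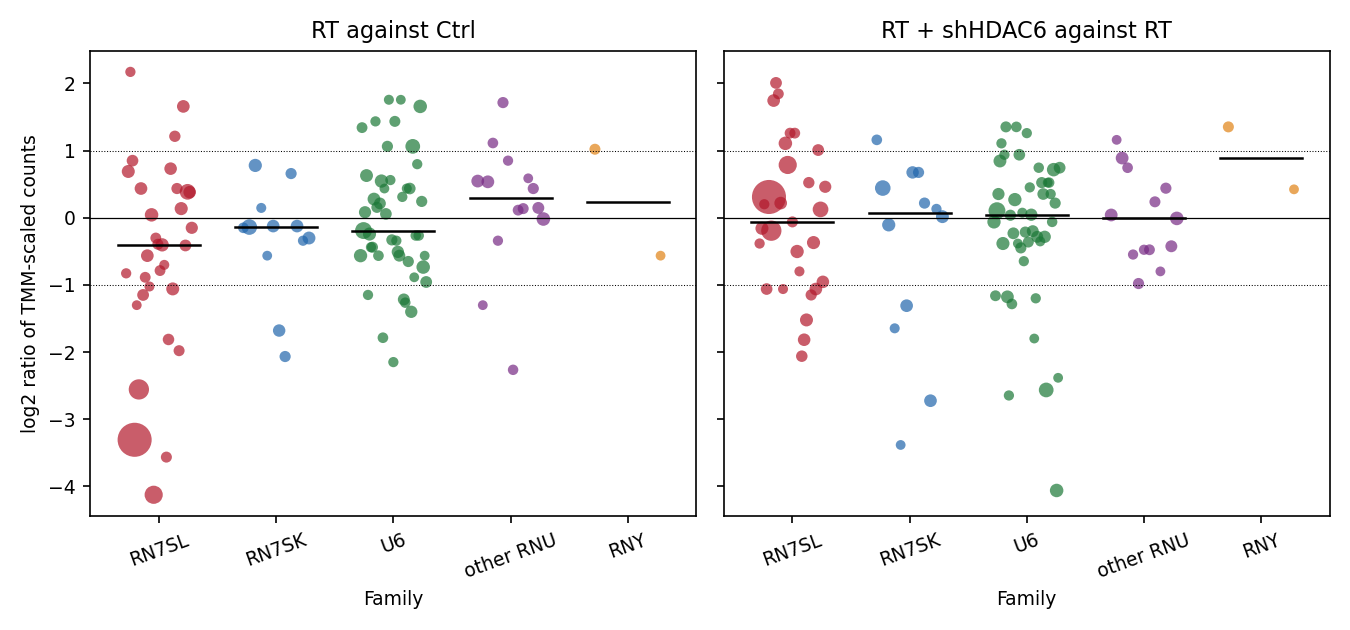
Log2 ratio of each member for RT against Ctrl (left, 105 copies) and RT + shHDAC6 against RT (right, 101 copies with a ratio), by family. Points grow with the highest count and black bars are medians. The 4 lowest RN7SL points on the left are RN7SL4P, RN7SL5P, RN7SL2 and RN7SL3, and RN7SL2, RN7SL3 and RN7SL4P lie within 1 of zero on the right.

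The 7SK family, named for the RNA that restrains P-TEFb, was present only as pseudogene copies. The gene RN7SK had 0 counts in each library, and its exon is wholly covered by a second row named 7SK, also at 0. The 12 copies summed to 273, 182 and 180 counts, -0.15 (-0.43 to 0.13) for RT against Ctrl and -0.08 (-0.38 to 0.23) for RT + shHDAC6 against RT. RN7SKP16, in an intron of PHC2, led with 64, 43 and 61 counts, and RN7SKP173, in an intron of ACTR5, had 26, 33 and 32. Neither was 2-fold apart in a comparison. RN7SKP30 (17, 3 and 5 counts) and RN7SKP296 (26, 6 and 10) were the 2 copies of 12 lower in RT than in Ctrl. Of all rows 9.2% were lower, and of the rows with 10 to 99 counts 20.6%. RN7SKP72 had 28, 19 and 3 counts, a ratio of -2.73 (-5.13 to -0.96) for RT + shHDAC6 against RT, and RN7SKP268 had 10, 5 and 0. These last 4 were chosen after their values were seen. RN7SKP30 and RN7SKP268 reached 10 counts only in Ctrl, so their lower counts in the irradiated libraries follow in part from the choice of members.

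U6 made up 45 of the 59 RNU members, and its sum was level, with 791, 601 and 590 counts and ratios of 0.04 (-0.12 to 0.19) for RT against Ctrl and of -0.09 (-0.26 to 0.08) for RT + shHDAC6 against RT. Of the 45 copies, 6 were lower and 8 higher in RT than in Ctrl, against 9.2% and 4.96% of all rows and 20.6% and 6.11% of the rows with 10 to 99 counts. RNU6-1, the reference gene, had 34, 17 and 17 counts, -0.57 (-1.5 to 0.32) for RT against Ctrl. RNU6-2 had 21, 18 and 16 and RNU6-9 had 16, 14 and 17, both without a difference beyond counting error. Among the pseudogene names with the same sequence, RNU6-6P had 25, 7 and 6 counts, RNU6-4P 22, 11 and 10, and RNU6-3P 17, 10 and 9. The 6 identical copies summed to 135, 77 and 75 counts, -0.38 (-0.80 to 0.04) for RT against Ctrl and -0.48 (-0.90 to -0.06) for RT + shHDAC6 against Ctrl. RNU6-6P reached 10 counts only in Ctrl, so these low ratios follow in part from the choice of members. Of the 1277 U6 rows, 7 have the sequence of RNU6-1, so not all were summed. None of the 50-base windows of the 6 copies is found once, so the way their reads were split among them is uncertain. The 39 other U6 copies summed to 656, 524 and 515, a ratio of 0.11 (-0.06 to 0.28) for RT against Ctrl.

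RNU6-1016P had 88, 57 and 64 counts, a ratio of -0.19 (-0.70 to 0.31) for RT against Ctrl. RNU6-705P followed another pattern, with 33, 51 and 9 counts. It was highest in RT and lowest in RT + shHDAC6, at 1.06 (0.40 to 1.74) for RT against Ctrl and -2.57 (-3.77 to -1.53) for RT + shHDAC6 against RT, and 72.7% of its windows are found once. The first of these fell under 2-fold, to 0.85, when scaled by library totals. The next 2 U6 copies, chosen after their values were seen, went in opposite directions in RT + shHDAC6. RNU6-909P, with 85.0% of its length in an exon of ENSG00000286432, had 36, 16 and 1 counts and RNU6-856P, in an intron of the chromatin remodeller gene PBRM1, had 9, 21 and 36. Against Ctrl, the second of these in RT + shHDAC6 was at 2.37 (1.29 to 3.61) while PBRM1 was at 0.25.

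The 14 RNU copies other than U6 summed to 206, 183 and 192 counts, 0.26 (-0.03 to 0.56) for RT against Ctrl and 0.01 (-0.29 to 0.31) for RT + shHDAC6 against RT. The U1 copies, relatives of the RNA that recognises the 5′ splice site, had 49, 45 and 65 counts over 3 copies. The 2 U2 copies had 17, 15 and 19, and the 2 U7 copies 59, 45 and 42. RNU7-57P held 37, 27 and 28 of the last and did not differ in any comparison, with ratios of -0.02 and -0.01 for the first and second. RNU5A-1, the gene of an RNA that aligns the exons, had 16, 13 and 16 counts, and the minor-spliceosome gene RNU6ATAC had 9, 10 and 6. The 2 U4 copies had 16, 29 and 18 counts, 1.29 (0.37 to 2.27) for RT against Ctrl, but the 90 U4 rows together gave 0.07 (-0.48 to 0.61). Both U4 copies reached 10 counts only in RT, so their high ratio follows in part from the choice of members. The 2 U4atac copies had 28, 14 and 9 counts, -1.26 (-2.53 to -0.14) for RT + shHDAC6 against Ctrl. Of these, RNU4ATAC16P (13, 2 and 0 counts) reached 10 only in Ctrl, so this low ratio follows in part from the choice of members. The other, RNU4ATAC18P (15, 12 and 9), was at -0.36 (-1.74 to 0.92). All 18 U4atac rows, which include both, gave -1.305 (-2.494 to -0.245). The 2 RNY copies, RNY1P12 and RNY1P16, had 14, 11 and 23 counts together. Their ratio of RT + shHDAC6 to RT was 1.0 (-0.09 to 2.19), whereas all 56 RNY rows gave -0.10. RNY1P12 (4, 6 and 16 counts) reached 10 only in RT + shHDAC6 and RNY1P16 (10, 5 and 7) only in Ctrl. The choice of members thus favoured the higher ratio to RT.

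**Figure D4:**
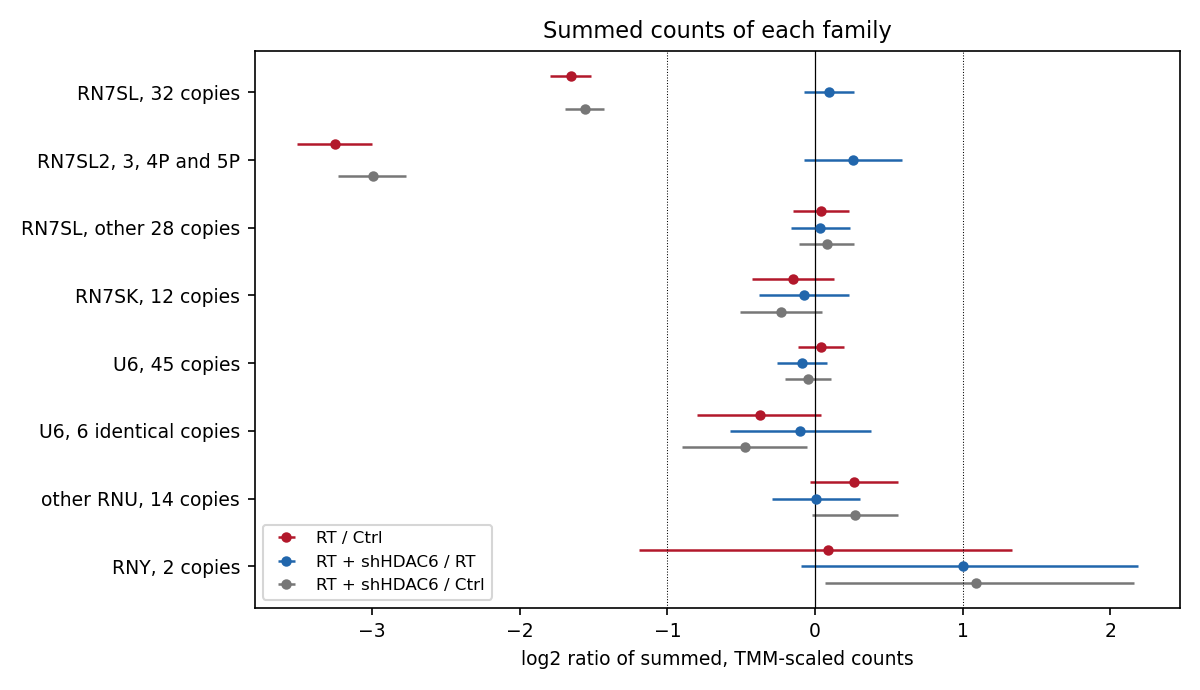
Log2 ratios of the summed counts of each family with 95% counting intervals, in the 3 comparisons, which share libraries. The full RN7SL sum and its 4 named copies lie below -1 in both comparisons with Ctrl, and the sums of the other 28 RN7SL copies, RN7SK and U6 have intervals that include 0.

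The genes usually taken as the active copies were largely uncounted. RN7SL1, RN7SK, RMRP, RPPH1, RNU2-1, RNU11, RNU12, RNU7-1, RNY3 and RNY4 had 0 counts in all 3 libraries, which speaks only of reads assigned to these rows. RNY1 had 0, 0 and 1 counts, RNU1-1 had 0, 2 and 1, VTRNA1-1 had 2, 0 and 3, and VTRNA1-3 had 1, 3 and 0. Several of these rows share their exon or their sequence. The exon of RPPH1 is wholly shared with ENSG00000259001 and that of RNU12 with ENSG00000270022, 98.4% of RNU7-1 lies in an exon of C12orf57, and RNU2-1 and RNU1-1 have no 50-base window that is found once. No ratio was formed for RMRP, RPPH1 or VTRNA rows, which summed to 3, 3 and 3 counts for the vault RNAs.

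Most members lie within other genes. In GENCODE release 44, 78 of the 105 members (74.3%) lie in an intron of another gene on the same strand, as do 34.2% of all 2842 rows of the families. A further 9 lie in an intron on the opposite strand, 9 overlap an exon on the same strand and 9 overlap no other gene. The 78 intronic copies summed to 1379, 1044 and 1137 counts, a ratio of 0.03 (-0.08 to 0.15) for RT against Ctrl and 0.06 (-0.06 to 0.18) for RT + shHDAC6 against RT. Those 9 in no other gene summed to 343, 149 and 104, or -0.77 (-1.06 to -0.49) for RT against Ctrl, a value set by RN7SL3. Without RN7SL3, a sum formed after the values were seen, the other 8 had 160, 126 and 83 counts. Their ratio was 0.09 (-0.26 to 0.44) for RT against Ctrl and -0.66 (-1.08 to -0.25) for RT + shHDAC6 against RT. RNU6-705P, 1 of these 8, held 33, 51 and 9 of the counts, so most of the second fall came from this copy. Of the 9 copies, 6 were below 0 and 3 above 0 in RT + shHDAC6 against RT.

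For 70 intronic copies the surrounding gene also had 10 counts, and the 2 values can be set side by side. In RT against Ctrl the log2 ratio of the surrounding gene fell inside the counting interval of the copy for 62 of the 70, with medians of -0.13 for the copies and 0.05 for the genes. Between RT + shHDAC6 and RT it did so for 63 of 68 and against Ctrl for 56 of 70. The intervals are wide, and a ratio of 0 fell inside 60, 60 and 55 of them, so these counts say little on whether copy and gene move together. The named copies in RT against Ctrl were as follows. RN7SL81P was at 0.39 and CALU, a calcium-binding protein of the secretory pathway, at 0.87. RNU6-1016P was at -0.19 and SENP6, a SUMO protease, at -0.31. RN7SKP16 was at -0.14 and PHC2, a Polycomb protein, at -0.33, and RN7SKP173 was at 0.78 and ACTR5 at 0.45. The sign differed for the other two, with RN7SL130P at 0.69 and PGM1, a phosphoglucomutase, at -0.35, and RNU7-57P at -0.02 and ATP8B2 at 0.28. Reads of unspliced precursor and of the copy's own transcript cannot be told apart in these counts. In bulk RNA, fewer cells with a transcript and less of it per cell cannot be told apart either.

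**Figure D5:**
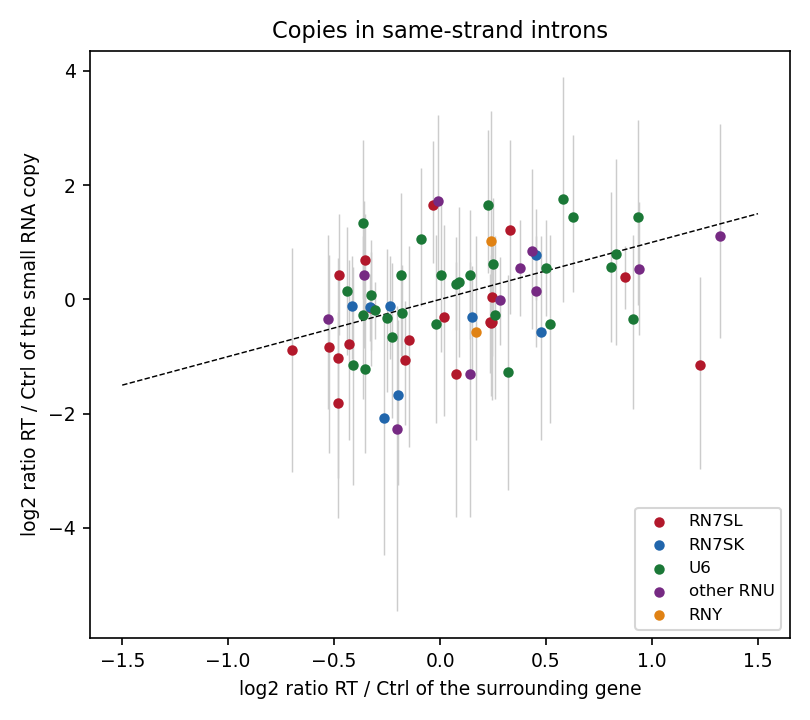
Log2 ratio of RT to Ctrl of 70 copies in same-strand introns against that of the surrounding gene, coloured by family, with 95% counting intervals of the copies. The dashed line marks equal ratios. The intervals of 62 copies include the ratio of the surrounding gene, and those of 60 include 0.

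The sequence after the copy was read for a polymerase III terminator and a retrotransposed A-rich tail, both background features of these families. TTTT within 20 bases after the end was found for 15.6% of RN7SL members and 9.7% of all RN7SL rows, for 17.8% of U6 members and 19.1% of all U6 rows, and for 33.3% of RN7SK members (4 of 12) and 13.6% of all RN7SK rows. The median number of A in the 30 bases after the end was 15.0 for RN7SL members and 16 for all RN7SL rows. RN7SL2 had 4, RN7SL3 and RN7SL4P had 7 each, and RN7SL5P had 8. A match is a description of these letters only.

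The protein partners of these RNAs are encoded by ordinary mRNAs, and most were under 2-fold apart between RT and Ctrl. Of 8 signal recognition particle and receptor genes, 1 was 2-fold higher in RT and 0 were lower, with a median of -0.02. Among all 20527 rows with 10 counts, 4.96% were higher and 9.2% lower. The receptor subunit SRPRB had 2170, 5069 and 5203 counts, 1.66 (1.59 to 1.73) for RT against Ctrl, and a ratio of RT + shHDAC6 to RT of -0.02. The other subunit SRPRA was at 0.80 for RT against Ctrl. SRP9 and SRP54, the 2 lowest of the 8, were at -0.33 and -0.23, and 4 of the 8 were above 0.

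Among 7 genes of the 7SK particle, MEPCE, which caps 7SK RNA, had 1610, 2976 and 2778 counts, 1.32 (1.23 to 1.41) for RT against Ctrl, and the other 6 were under 2-fold. CCNT1, a cyclin partner of CDK9, was at 0.53, CDK9 at -0.16 and LARP7 at -0.07. Of 11 RNase P and MRP genes 10 were above 0 in RT against Ctrl, with a median of 0.39 and RPP40 and POP1 the highest at 0.87 and 0.81. The exception was RPP25, with 21, 7 and 15 counts and a ratio of -1.15 (-2.63 to 0.14). None of 26 spliceosomal snRNP genes, 30 polymerase III genes, 6 Y RNA and La partners or 3 vault genes was 2-fold apart in RT against Ctrl, with medians of 0.26, 0.30, -0.17 and -0.07. Of the spliceosomal genes 21 of 26 were above 0, and of the polymerase III genes 20 of 30, where 9422 of all 20527 rows were above 0. POLR1C and POLR3B, subunits of the polymerase, were at 0.97 and 0.89, and POLR3GL and SNAPC3 at -0.91 and -0.22. RPP25 was, in RT + shHDAC6 against RT, the single gene of the 7 lists past 2-fold. It was higher, at 1.04 (-0.34 to 2.57), an interval that includes no difference. In that comparison 5.61% of all rows were lower and 4.93% higher. In the whole list of snoRNA and scaRNA rows, small RNAs mostly processed from introns, the summed counts were 3214, 3250 and 3430, a ratio of 0.45 (0.38 to 0.52) for RT against Ctrl, in the opposite direction to the RN7SL sum.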

How the data were processed

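Per the labels, total RNA of T24 cells was made into 3 libraries. The authors used cutadapt for trimming, STAR for alignment to GRCh38 (2.6.1a in the submitters' processing notes, another version in the methods) and featureCounts for counting, on the genes of GENCODE release 28. The deposited values are raw counts per gene. The strand setting and the handling of multi-mapping reads are not given in the sources used here. No molecular identifiers are stated, so intervals cover the counting error of reads only.

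Symbols and positions came from GENCODE release 44, to which 57754 of 58381 identifiers matched. Counts were scaled by TMM factors of edgeR 4.0.16 (R 4.3.3), 1.08, 0.933 and 0.988, and ratios with 95% Clopper-Pearson intervals (scipy 1.17.1) were taken in Python 3.11.15. With 1 library per condition no test could be run. The noise-based probability used in the study was not applied. Ratios and calls were tested on simulated data in which only genes counted more deeply than most members were changed. Recovery of a change at the depth of most members was therefore not tested. Windows of 50 bases were matched to both strands of GRCh38.

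The members, lists and cut-offs were chosen with earlier results of these data known. Named members are the family genes, the 10 with the most counts, and the 5 largest rises and falls in RT against Ctrl and in RT + shHDAC6 against RT among members with at least 50 counts, which only 7 have. Of each partner list, up to 2 rises and 2 falls are named. Others are named as chosen after their values were seen. Alternatives covered the scaling (library totals, upper quartile, median-of-ratios of DESeq2 1.42.0), zeros, the count minimum, the fold, shared exons and the copies summed. The sequences of the copies are not reported here.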

Additional observations from a re-analysis of the deposited data

How the results depend on the processing

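No paired analysis was possible because each condition has 1 library, and for the same reason no replicate could be left out. Depth limits most members, since 102 of 105 had at most 99 counts. Under the 3 other scalings and zeros set to 1, no 2-fold ratio of a named member or of RN7SL5P changed direction, and 1 fell under 2-fold, RNU6-705P in RT against Ctrl, at 0.85 with library totals. Over all alternatives, 124 values of the counts and sums stayed close to those reported, 47 moved and 3 reversed.

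For RT against Ctrl, library totals gave 9 members higher, and 1.5-fold gave 23. Counting only intervals clear of 0 left 11 lower and 7 higher, a minimum of 50 left 3 and 1, and no filter gave 72 and 39 of 632 rows. For RT + shHDAC6 against RT, 1.5-fold gave 25 higher, clear intervals 8 lower and 4 higher, a minimum of 50 gave 1 and 0, and no filter 47 and 34. For RT + shHDAC6 against Ctrl, 1.5-fold gave 28 higher, clear intervals 17 lower, a minimum of 50 gave 4 and 0, and no filter 79 and 35.

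The RN7SL sum for RT against Ctrl was -1.87 with library totals, -1.45 with no filter, -2.79 with a minimum of 50, -0.67 without copies that share an exon (which drops RN7SL2) and -3.31 for the copy with the most counts. It was -0.53 without RN7SL2 and reversed to 0.043 without RN7SL2, RN7SL3, RN7SL4P and RN7SL5P, both added after seeing the data. For RT + shHDAC6 against Ctrl the same 7 values were -1.70, -1.38, -2.57, -0.53, -3.00, -0.50 and 0.078, the last again reversed. For RT + shHDAC6 against RT the top copy gave 0.31. By construction, these alternatives differ in the copies summed or in the scale. The U6 sum for RT against Ctrl was -0.18 with library totals, 0.27 with a minimum of 50 and -0.19 for the top copy. For RT + shHDAC6 against RT it was -0.63 and 0.11 under the latter 2, and against Ctrl -0.36 with a minimum of 50. The RN7SK sum, with a minimum of 50 or the top copy, was 0.44 against RT and 0.30 against Ctrl. Against Ctrl, other RNU copies gave -0.024 with no filter and -0.029 for the top copy, and RNY gave 2.37 for the top copy. The RNY ratio to RT reversed to -0.10 with no filter.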
